A study of Mus musculus with 9 samples.

Results

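Elastic fibres are the stretchable part of connective tissue, and 10 genes for their proteins, for the enzymes that cross-link them and for latent TGF-beta binding proteins were followed here in mouse fibroblasts. The genes were chosen by name, with earlier results of these data known, large falls of Eln and Ltbp2 among them. Their p-values are therefore not those of a set picked independently of the data. The 10 genes were Eln, Fbn1, Fbln1, Fbln2, Fbln5, Ltbp1, Ltbp2, Mfap5, Lox and Loxl1. Of these, 9 had a probe set under their own name, 20 probe sets in all of the 45101 on the array, and for each gene the one with the highest mean log2 value over all arrays was taken as its main probe set. No probe set carried the name Fbn1 in the probe table used, so fibrillin-1, the main microfibril protein, was not analysed here. The mean log2 value had to reach 6.12, the median of all probe sets that are not controls (a signal of 53.8), for a gene to be tested. This held for 8 of the 9 genes and for 10613 of 18193 genes in all. The member nearest above that level was Eln with a mean of 8.76, and the member below it was Fbln1 with 5.46.

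The samples were NIH 3T3 cultures, a long-established fibroblast line from mouse embryos, and RNA was measured on 1-colour arrays whose values are MAS5 signals on a linear scale. A retroviral vector brought in a control short hairpin RNA (control shRNA), a hairpin against Ube2m (Ube2m shRNA) or a hairpin against Ube2f (Ube2f shRNA), and RNA was taken on day 5 after transduction, with 3 biological replicates in each of the 3 groups. The targets are the E2 enzymes that hand the ubiquitin-like protein NEDD8 to cullins, the scaffolds of many ubiquitin ligases, and the series asks, going by its title, how E2 and RING pairs choose the cullins that receive NEDD8. All groups shared the same medium with 10% serum, and the growth label of every sample describes the cells as expressing Ube2f, without saying whether this was an added construct. The labels do not state how many hairpins were used per target. The labels do not say that replicates came from separate transductions, so p-values measure the spread between these samples. A signal from a whole culture cannot tell fewer expressing cells from less RNA per cell.

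An elastic fibre forms when tropoelastin, the product of Eln, is laid down on a scaffold of fibrillin microfibrils and is cross-linked by lysyl oxidases. Fibulins bind both tropoelastin and the microfibril and help to bring the enzymes to the fibre. Latent TGF-beta binding proteins sit on the same microfibrils, and several of them hold TGF-beta in an inactive complex in the matrix. Fibroblasts and smooth muscle cells are the main makers of these proteins in skin, lung and arteries.

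Promoter sequences from RefSeq (build GRCm38.p6) were read for 6 of the 10 genes, in a search that skipped a chromosome. Of these, Ltbp2, Fbln5 and Fbln2 are shown because all 3 had their lowest signals with Ube2m shRNA, and Ltbp1 because it had its lowest with Ube2f shRNA. Each line gives the 250 bases before an annotated start, 5′ to 3′ on the gene's strand, and for Fbln5 and Ltbp1, which have several annotated starts, the first one upstream. Capitals mark matches on either strand to the GC box GGGCGG or to the SMAD half-site CAGAC, which did not overlap each other. Ltbp2 lies at chr12:84876492-84876741 on the minus strand, Fbln5 at chr12:101819120-101819369 on the minus strand, Fbln2 at chr6:91212514-91212763 on the plus strand and Ltbp1 at chr17:75005279-75005528 on the plus strand.
Ltbp2: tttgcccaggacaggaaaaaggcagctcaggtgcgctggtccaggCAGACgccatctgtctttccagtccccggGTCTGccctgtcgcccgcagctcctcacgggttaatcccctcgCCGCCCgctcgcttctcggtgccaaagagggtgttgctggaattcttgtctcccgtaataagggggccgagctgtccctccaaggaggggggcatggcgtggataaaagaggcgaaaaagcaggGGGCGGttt
Fbln5: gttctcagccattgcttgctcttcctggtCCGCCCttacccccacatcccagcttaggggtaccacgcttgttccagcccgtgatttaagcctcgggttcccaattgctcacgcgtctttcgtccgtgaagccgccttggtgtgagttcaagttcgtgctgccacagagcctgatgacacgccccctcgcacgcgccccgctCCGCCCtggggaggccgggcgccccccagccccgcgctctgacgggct
Fbln2: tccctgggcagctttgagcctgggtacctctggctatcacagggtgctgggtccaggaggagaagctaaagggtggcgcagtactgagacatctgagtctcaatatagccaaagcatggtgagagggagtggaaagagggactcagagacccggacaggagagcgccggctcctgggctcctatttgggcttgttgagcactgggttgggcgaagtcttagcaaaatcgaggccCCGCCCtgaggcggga
Ltbp1: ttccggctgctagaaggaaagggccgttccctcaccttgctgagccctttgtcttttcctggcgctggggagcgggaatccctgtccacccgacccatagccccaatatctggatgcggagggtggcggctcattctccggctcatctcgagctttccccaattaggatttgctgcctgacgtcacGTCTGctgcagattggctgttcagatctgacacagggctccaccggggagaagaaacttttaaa
GC boxes numbered 2 in the Ltbp2 window, 2 in that of Fbln5 and 1 in that of Fbln2, and 32.7% of the 32851 promoter windows of this length hold at least 1. SMAD half-sites numbered 2 in the Ltbp2 window and 1 in that of Ltbp1, against a share of 42.2% of all windows. A TATA box (TATAAA, in 12.4% of windows), an AP-1 site (TGACTCA, 4.46%) and the core of the antioxidant response element (TGACNNNGC, 10.2%), searched on both strands, were not found in these 4 windows. The motifs depend on the start taken. At their second annotated start, not shown, Fbln5 had 2 SMAD half-sites and no GC box, and Ltbp1 had 2 SMAD half-sites. Such matches describe the letters only, and the arrays do not measure binding.

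The arrays differed in ways that touch these genes. Replicates 1 and 2 had median signals of 53.3 to 58.5 over the whole array and replicate 3 of 64 to 73.5. The beta-actin 3′/5′ ratio, a measure of RNA quality, was 1.82 on control replicate 1 and 1.24 to 1.35 on the other arrays. Ube2f signal was 118 to 144 with its own hairpin and 2367 to 3140 on the other 6 arrays, while no probe set carried the name Ube2m alone, so that its reduction was not checked. All 8 fibroblast markers lay above the low-signal level and summed to 115944 to 142602 on control arrays, 114652 to 131598 on Ube2m arrays and 127300 to 147260 on Ube2f arrays. Of the markers of endothelium and adipocytes 0 of 4 and 0 of 3 did, of those of macrophages 2 of 6 (Csf1r and Lyz2), and of smooth muscle, which fibroblasts share in part, 4 of 5. Of 5 epithelial markers 3 did (Epcam, Cdh1 and Krt14), which with the others summed to 3154 to 5245 on control arrays, 5637 to 6431 on Ube2m arrays and 2643 to 4130 on Ube2f arrays. Krt14 made up most of that sum, with means of 4214, 5790 and 2983 on control, Ube2m and Ube2f arrays, and was higher with Ube2m than with Ube2f shRNA (0.98, limma adjusted p = 0.00599). Epcam means were 151, 141 and 168 and those of Cdh1 85.6, 106 and 162, with no call in any comparison. The fibroblast sum is mostly collagens, Vim and S100a4, and single markers did move. Thy1 was lower with Ube2m shRNA (-0.70, limma adjusted p = 0.0163), Pdgfra higher with Ube2f shRNA (0.72, limma adjusted p = 0.00997), and Thy1 (-0.67), Pdgfra (-0.96) and Pdgfrb (-0.51) were lower with Ube2m than with Ube2f shRNA (limma adjusted p = 0.0114, 0.000578 and 0.00928). Like these 3, Eln, Fbln5, Fbln2 and Ltbp2 below had lower means with Ube2m than with Ube2f shRNA, and the part of such shifts in their values was not tested.

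The 8 tested genes are described below in 3 patterns, which go by the main probe sets and were not tested as such. Eln, Fbln5, Fbln2 and Ltbp2 had their lowest signals with Ube2m shRNA. Mfap5 and Ltbp1 had theirs with Ube2f shRNA, though Ltbp1 was not called between the hairpins. Lox had similar lower signals with both hairpins. Loxl1 is placed with it, since its hairpins did not differ by a call, although Ube2m shRNA was the lower group. On the dimmer Loxl1 probe set Ube2f shRNA was the lower group. Fold changes are log2 differences of signal + 16, from a limma model over all genes and all 9 arrays, with p-values adjusted over all genes tested by Benjamini-Hochberg and a threshold of 0.05. That Eln and Ltbp2 were among the largest falls with Ube2m shRNA was known when the genes were chosen, so their values on those arrays are a description, without p. The Ube2f comparison uses the same control arrays, so the p-values of Eln and Ltbp2 in it are not independent of that choice.

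**Figure D1:**
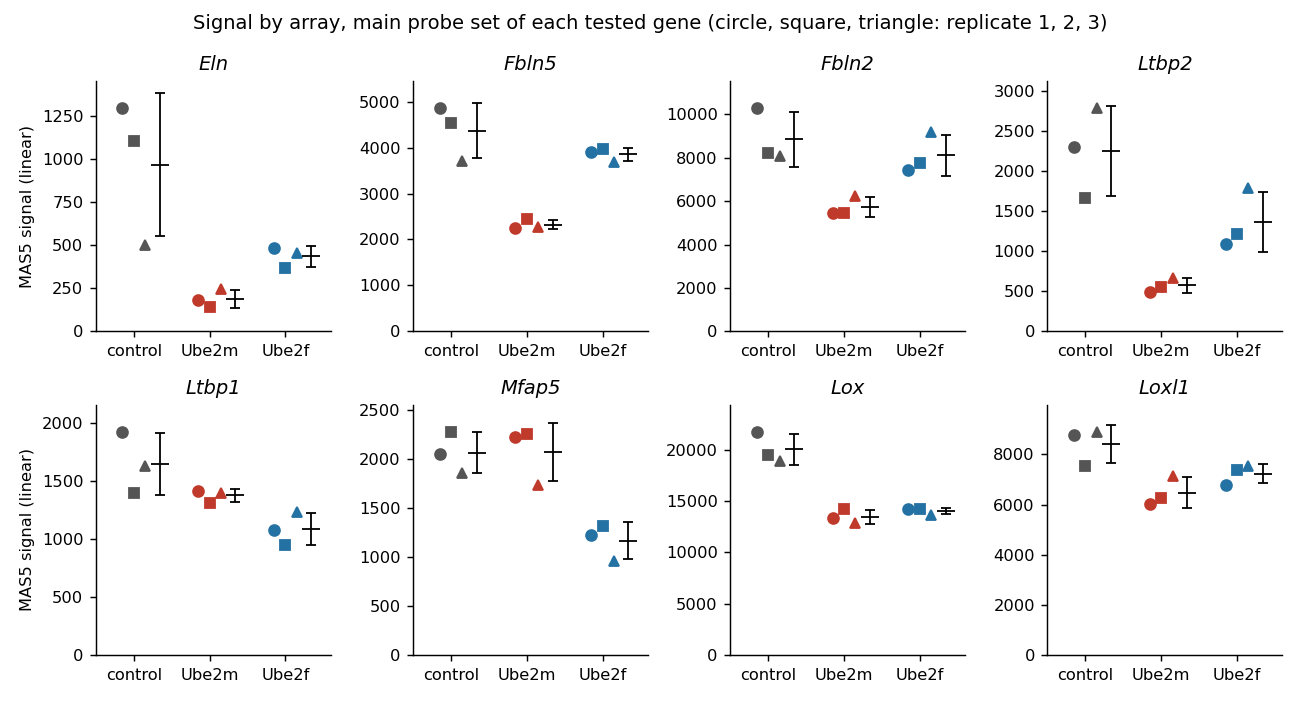
Linear MAS5 signal of the main probe set of the 8 tested genes, with 1 point per array, symbols for the replicate number, and the mean with its SD (n = 3 arrays) as a black bar beside each group. Eln reads 138 to 243 with Ube2m shRNA against 499 to 1296 in control, and Mfap5 reads 958 to 1314 with Ube2f shRNA, below the other 6 arrays.

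Elastin, the rubber-like core of the fibre, gave the largest difference of the group. Eln (probe set 1420855_at) read 1296, 1102 and 499 on control replicates 1 to 3, 182, 138 and 243 with Ube2m shRNA, and 483, 367 and 456 with Ube2f shRNA. Every array of the Ube2m group lay below every array of the Ube2f group, and these below all controls, although control replicate 3 was only slightly above the highest Ube2f array. Mean signal was 966 ± 415 in control, 187 ± 52.5 with the Ube2m hairpin and 435 ± 61.1 with the Ube2f hairpin (SD, n = 3 arrays each), so 19.4% and 45.1% of the control level remained. This gave a log2 fold change of -2.19 (SE 0.30, 95% confidence interval -2.84 to -1.55) with Ube2m shRNA and -1.02 (SE 0.30) with Ube2f shRNA, where it did not pass by limma (adjusted p = 0.0689). Between the hairpins the log2 difference was -1.17 (SE 0.30), lower with Ube2m, and -0.99 without Ube2m replicate 2. Without control replicate 3 the Ube2f difference was -1.43 (limma adjusted p = 0.00327), and in replicates 1 and 2 alone -1.47 (limma adjusted p = 0.000601). With both Eln probe sets averaged it was -1.38 and also passed (limma adjusted p = 0.0211).

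The second Eln probe set (1420854_at), dimmer than the main one, had group means in the same order, with overlap between the hairpins. It read 288, 381 and 180 in control, 11.3, 40.4 and 19.8 with Ube2m and 31.1, 90.1 and 111 with Ube2f shRNA. All 3 Ube2m arrays were below the low-signal level there, so its log2 difference of -2.91 from control depends on the constant added. Control replicate 3 stood apart from the other controls. Taken by replicate number, which is only a label here, the main probe set differed from control by -2.73, -2.86 and -0.99 with Ube2m and by -1.39, -1.55 and -0.13 with Ube2f shRNA.

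**Figure D2:**
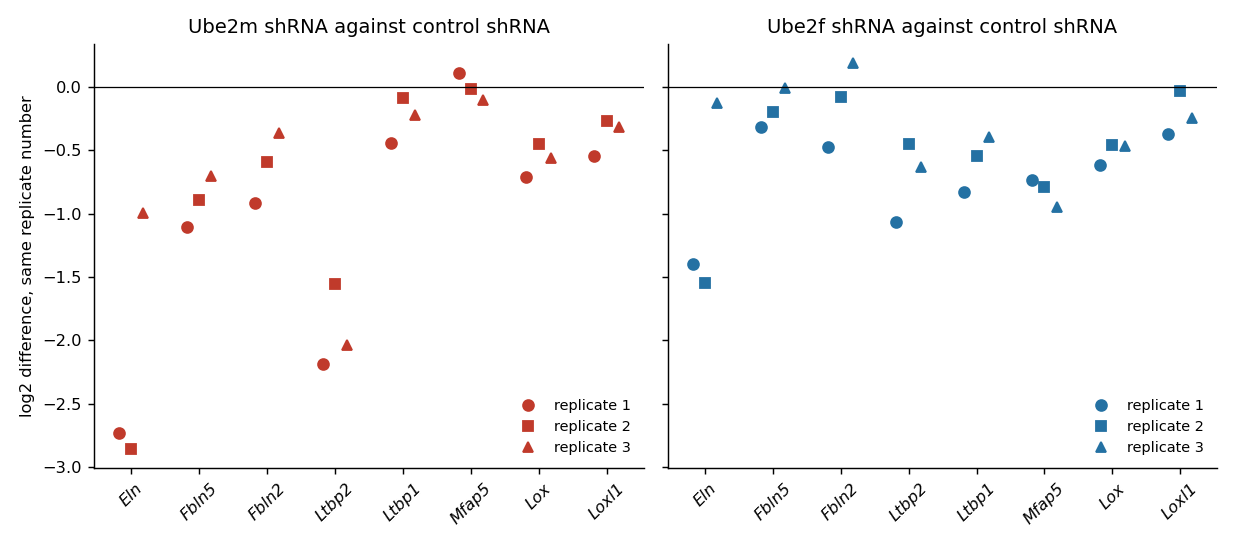
Log2 difference (signal + 16) of each hairpin from the control array with the same replicate number, for the main probe sets of the 8 tested genes, with 1 symbol per replicate. For Eln the replicate 3 triangles, at -0.99 and -0.13, lie far above those of replicates 1 and 2, while for Mfap5 with Ube2f shRNA the 3 values lie between -0.94 and -0.73.

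Fibulins, which tether tropoelastin to microfibrils, were lower with Ube2m shRNA and not detectably changed with Ube2f shRNA. Fbln5 (1416164_at), the fibulin that binds both elastin and cell-surface integrins, read 4869, 4542 and 3712 in control, 2252, 2445 and 2273 with Ube2m and 3908, 3967 and 3684 with Ube2f shRNA. The Ube2m arrays lay apart from all others and close to each other, at 53.1% of the control mean. Its log2 fold change was -0.90 (SE 0.11, limma adjusted p = 0.000485) against control and -0.73 (SE 0.11, limma adjusted p = 0.000947) against Ube2f shRNA, and both passed without any 1 of the 9 arrays. With Ube2f shRNA Fbln5 differed from control by -0.17 (95% confidence interval -0.42 to 0.07, limma adjusted p = 0.421). Its other probe set (1446377_at) read 4.4 to 43.4 on all arrays, under the low-signal level. With that probe set averaged in, the Ube2m difference was -0.05 from control (limma adjusted p = 0.929) and -0.17 from Ube2f shRNA (limma adjusted p = 0.682).

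Fbln2 (1423407_a_at), a large fibulin that binds fibrillin and tropoelastin, read 10305, 8199 and 8061 in control, 5463, 5432 and 6260 with Ube2m and 7417, 7753 and 9185 with Ube2f shRNA. All Ube2m arrays were below all others, and control and Ube2f arrays overlapped. With Ube2m shRNA Fbln2 had a log2 fold change of -0.62 (SE 0.12, limma adjusted p = 0.00884) against control and -0.50 (SE 0.12, limma adjusted p = 0.0159) against Ube2f shRNA. The first was -0.59 without Ube2m replicate 2 (limma adjusted p = 0.0510), and the second was -0.47 without Ube2m replicate 1 (limma adjusted p = 0.0658) or Ube2m replicate 2 (limma adjusted p = 0.0722), and missed the threshold with centring on all probe sets (-0.52, limma adjusted p = 0.0898). With Ube2f shRNA the difference from control was -0.12 (95% confidence interval -0.39 to 0.15). The dim second probe set (1438375_at) averaged 229 ± 85.1 on control, 174 ± 9.31 on Ube2m and 305 ± 50.4 on Ube2f arrays, and its Ube2m values of 164, 177 and 182 fell within the control range of 154 to 321.

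Fbln1, a fibulin found in elastic fibres and basement membranes, was at background in these cells. Its 3 probe sets read 4.9 to 80.2, with 4 of 27 values above the low-signal level, and it was not tested. No order of the groups can be read from such values.

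**Figure D3:**
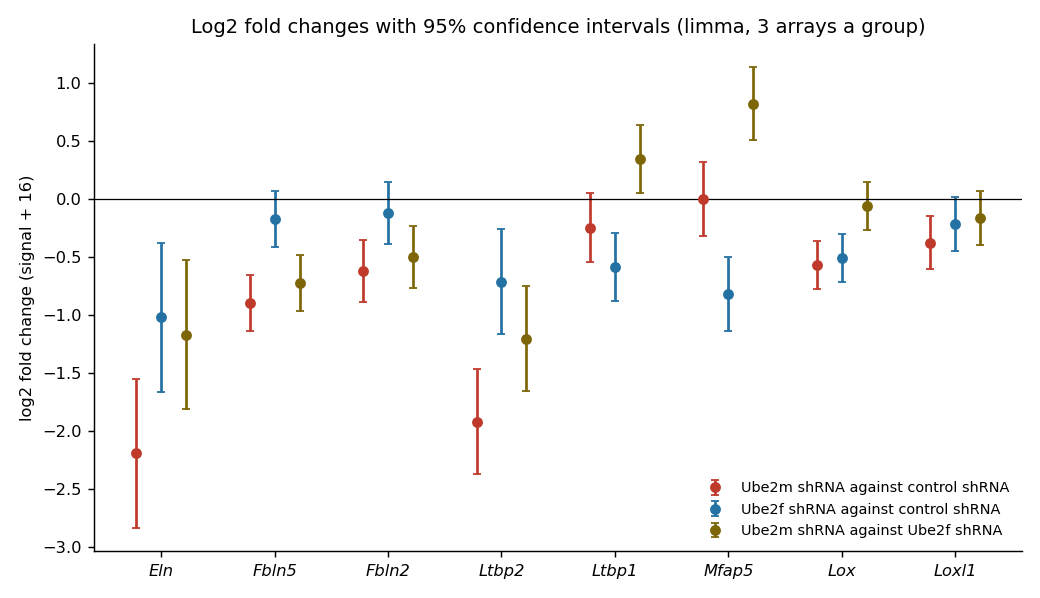
Log2 fold change (signal + 16) of the 8 tested genes in the 3 comparisons, with bars for the 95% confidence interval of the limma fit (3 arrays a group). Mfap5 lies at -0.00 with Ube2m and at -0.82 with Ube2f shRNA, Lox at -0.57 and -0.51, and Ltbp2 at -1.92 and -0.72.

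The latent TGF-beta binding proteins differed from each other in their order of groups. Ltbp2 (1418061_at, its sole probe set), the member of the family that does not bind latent TGF-beta itself but sits on microfibrils and binds fibulin-5, read 2295, 1665 and 2790 in control, 492, 557 and 670 with Ube2m and 1086, 1216 and 1795 with Ube2f shRNA. The Ube2m arrays were below all others without overlap, while the highest Ube2f array exceeded the lowest control. The means were 2250 ± 564, 573 ± 89.7 and 1365 ± 377 (SD, n = 3 arrays each), or 25.5% of control with Ube2m and 60.7% with Ube2f shRNA. Against control this was a log2 fold change of -1.92 with Ube2m shRNA (SE 0.21, 95% confidence interval -2.38 to -1.47), and the hairpins differed by -1.21 (SE 0.21), lower with Ube2m. With Ube2f shRNA Ltbp2 differed by -0.72 (SE 0.21) and did not pass (limma adjusted p = 0.0705). It passed without control replicate 2 (-0.92, limma adjusted p = 0.0311) or without Ube2f replicate 3 (-0.93, limma adjusted p = 0.0178), and in replicates 1 and 2 alone (-0.76, limma adjusted p = 0.00980).

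Ltbp1 (1448870_at), which binds latent TGF-beta and places it in the matrix, showed the opposite order of the hairpins. It read 1928, 1395 and 1630 in control, 1416, 1314 and 1400 with Ube2m and 1076, 950 and 1233 with Ube2f shRNA. The Ube2f arrays were the lowest without overlap, and the Ube2m arrays overlapped with control. Ltbp1 fell with Ube2f shRNA by a log2 fold change of -0.59 (SE 0.14, limma adjusted p = 0.0245), and the call was lost without control replicate 1 (-0.48, adjusted p = 0.0959), control replicate 3 (-0.60, adjusted p = 0.0505), Ube2f replicate 1 (-0.59, adjusted p = 0.101) or Ube2f replicate 2 (-0.50, adjusted p = 0.0945). It was also lost with the beta-actin ratio in the model (-0.47, limma adjusted p = 0.119), with only these 2 groups fitted (adjusted p = 0.0586), without the intensity trend (adjusted p = 0.0554) and with all its probe sets averaged (-0.39, adjusted p = 0.343). With Ube2m shRNA Ltbp1 differed from control by -0.25 (95% confidence interval -0.54 to 0.05, limma adjusted p = 0.285). Between the hairpins it was higher with Ube2m by 0.34 (SE 0.14, limma adjusted p = 0.111). This passed with the replicate number as a block (limma adjusted p = 0.0308) and with centring on the median of the genes tested. A second probe set (1447547_at), with a mean under the low-signal level, averaged 67.6 ± 16.4 in control and 37.5 ± 7.13 and 36.1 ± 8.94 with the Ube2m and Ube2f hairpins.

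Mfap5, a microfibril glycoprotein also known as MAGP-2, was lower with Ube2f shRNA alone. Its main probe set (1418454_at) read 2052, 2277 and 1856 in control, 2217, 2256 and 1730 with Ube2m and 1226, 1314 and 958 with Ube2f shRNA. The Ube2f arrays lay below all others, and the Ube2m and control arrays were interspersed. Mfap5 had a log2 fold change of -0.82 (SE 0.15, limma adjusted p = 0.00693) with Ube2f shRNA and -0.00 (95% confidence interval -0.32 to 0.31, limma adjusted p = 0.999) with Ube2m shRNA. The difference between the hairpins was itself tested, with Mfap5 higher by 0.82 with Ube2m (SE 0.15, limma adjusted p = 0.00242). Both calls held without any 1 of the 9 arrays and with the beta-actin covariate. Both were lost with each array centred on the median of all its probe sets (-0.89, limma adjusted p = 0.0817, and 0.80, limma adjusted p = 0.0556). A second probe set (1449082_at) did not follow, at 392 ± 38.7 on control, 469 ± 67.2 on Ube2m and 365 ± 95.4 on Ube2f arrays. The Ube2f difference was -0.48 with both probe sets averaged (limma adjusted p = 0.163).

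**Figure D4:**
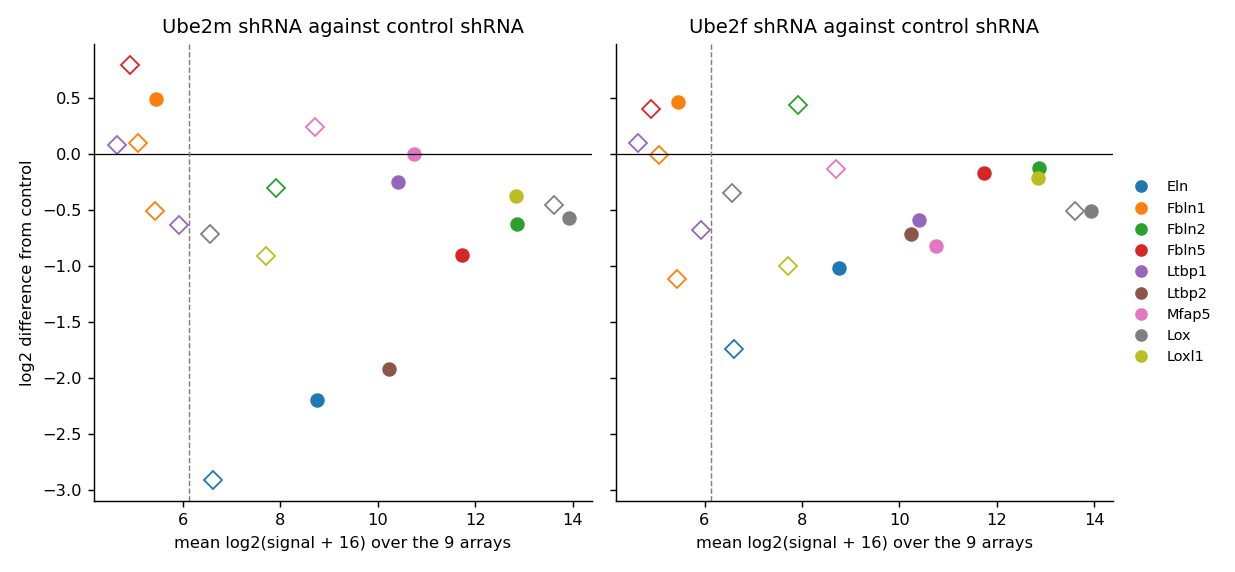
Log2 difference from control of all 20 probe sets of the 9 genes against their mean log2(signal + 16) over the 9 arrays, for Ube2m (left) and Ube2f shRNA (right), with filled circles for main and open diamonds for other probe sets. The dashed line marks the low-signal level of 6.12, under which the differences scatter on both sides of 0, while both Eln probe sets lie to its right and far below 0.

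Lysyl oxidases oxidise lysines in tropoelastin and collagen so that the chains can be cross-linked. Lox (1416121_at), the founding enzyme of the family, read 21776, 19461 and 18899 in control, 13319, 14213 and 12838 with Ube2m and 14247, 14198 and 13684 with Ube2f shRNA. Both hairpin groups lay below control without overlap and overlapped with each other, at 67.1% and 70.1% of the control mean. Lox had a log2 fold change of -0.57 (SE 0.095, limma adjusted p = 0.00292) with Ube2m and -0.51 (SE 0.095, limma adjusted p = 0.00872) with Ube2f shRNA, and these comparisons share their control arrays. The hairpins differed by -0.06 (95% confidence interval -0.27 to 0.14), an interval that does not show that they act alike. A second bright probe set (1448228_at) read 15613 ± 686 on control, 11411 ± 1239 on Ube2m and 10956 ± 389 on Ube2f arrays, log2 differences of -0.46 and -0.51. A dim probe set (1437903_at), slightly above the low-signal level, read 105 ± 13.7, 59.3 ± 19.6 and 81.5 ± 27.7 in the same order. Its log2 differences were -0.72 and -0.35, and only its Ube2f arrays overlapped with control. Both Lox calls held without any 1 array. The Ube2f call was lost with the beta-actin covariate (-0.45, limma adjusted p = 0.0613). Like those of Mfap5, both were lost with centring on the median of all probe sets (-0.66, limma adjusted p = 0.0818, and -0.57, limma adjusted p = 0.197), and both passed with centring on the median of the genes tested.

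Loxl1, the family member most tied to elastin cross-linking and to fibulin-5, changed less than Lox on its main probe set. That probe set (1451978_at) read 8781, 7551 and 8912 in control, 6006, 6260 and 7157 with Ube2m and 6791, 7386 and 7534 with Ube2f shRNA. All arrays of both hairpins were below the 3 controls. Loxl1 had a log2 fold change of -0.38 (SE 0.11, limma adjusted p = 0.0435) with Ube2m and -0.21 (SE 0.11, limma adjusted p = 0.285) with Ube2f shRNA. The Ube2m call lay near the threshold and was lost without control replicate 1 (-0.34, adjusted p = 0.141) or 3 (-0.33, adjusted p = 0.101), without Ube2m replicate 1 (-0.33, adjusted p = 0.177) or 2 (-0.36, adjusted p = 0.156), or without Ube2f replicate 1 (adjusted p = 0.0665) or 2 (adjusted p = 0.0521). It was lost as well under 7 other settings, among them the beta-actin covariate (-0.35, limma adjusted p = 0.145) and no filter on low signals (limma adjusted p = 0.0786). A dimmer probe set (1436063_at) fell further, from 313 ± 54.6 to 160 ± 38.8 and 148 ± 18.4, log2 differences of -0.91 and -1.0, and its hairpin arrays did not overlap with control. With both probe sets averaged, Loxl1 was -0.64 with Ube2m (limma adjusted p = 0.00992) and -0.61 with Ube2f shRNA (limma adjusted p = 0.0225), so that the Ube2f difference then passed.

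Counted together, all 8 tested genes had a log2 fold change below 0 with Ube2m shRNA, as did 55.6% of all genes tested. That of Mfap5 was only -0.0009, and its mean signal was not lower (2068 against 2062 in control). The median log2 fold change of the 8 was -0.60 against -0.04 over all genes tested. Besides Eln and Ltbp2, 4 of the other 6 were called lower by limma (Fbln5, Lox, Fbln2 and Loxl1) and 0 higher, where 9.71% of all genes tested were called, 3.59% higher and 6.12% lower. In 6 of the 8 every Ube2m array lay below every control, as in 18% of all genes, and 29.7% of all genes had no overlap in either direction. Nothing is read from these counts, since the genes were proposed with the comparison known. The Ube2f comparison uses the same control arrays, so nothing is read from its counts either. With Ube2f shRNA all 8 had a log2 fold change below 0, as did 48.2% of all genes, with a median of -0.55 against 0.01. Of the 8, 3 were called lower (Mfap5, Lox and Ltbp1) and 0 higher, where 5.19% of all genes were called, 2.23% higher and 2.96% lower. In 5 of the 8 every Ube2f array lay below every control, as in 11.6% of all genes, of which 23.2% had no overlap in either direction. With the beta-actin covariate Mfap5 alone of these 3 passed, and with centring on all probe sets Ltbp2 passed in their place (-0.78, limma adjusted p = 0.0318). Between the hairpins, leaving aside Eln and Ltbp2, 2 of the other 6 were called lower with Ube2m (Fbln5 and Fbln2) and 1 higher (Mfap5), where 15.8% of all genes were called, 9.38% lower and 6.37% higher. Hairpin arrays did not overlap for 4 genes lower with Ube2m, Eln and Ltbp2 among them, and 2 higher, as for 20.6% and 13.7% of all genes, or 34.4% in all. The direction of calls over all genes moved with the scaling. Ube2m shRNA against control gave 381 higher and 650 lower, but 534 and 432 with each array centred on the median of the genes tested and 124 and 401 with centring on all probe sets. The Ube2f counts were 237 and 314, and 50 and 172 with centring on all probe sets. Those between the hairpins were 676 and 996, and 856 and 745 with centring on the genes tested.

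Other genes of elastic fibres and of the TGF-beta they store were taken as 6 lists, holding 70 distinct genes tested. With Ube2m shRNA 12 of these 70 fell and 4 rose, with Ube2f shRNA 4 fell and 2 rose, and between the hairpins 19 were lower and 10 higher with Ube2m. These and the counts below stand beside 9.71%, 5.19% and 15.8% of all genes called in the same comparisons. By direction, 6.12%, 2.96% and 9.38% were lower and 3.59%, 2.23% and 6.37% higher. The medians stand beside -0.04, 0.01 and -0.04. Near this background were the TGF-beta response genes with Ube2m shRNA (1 higher and 1 lower of 20). So were the cell-surface binding genes between the hairpins (1 lower of 8). With Ube2f shRNA each list but the response genes held 0 or 1 call. Of 13 tested genes of microfibril and elastic fibre assembly, 4 fell and 0 rose with Ube2m shRNA, with a median log2 fold change of -0.39. They were Adamtsl5 (-1.11, SE 0.15), a secreted ADAMTS-like protein, from 610 ± 74.3 to 275 ± 39.4 (limma adjusted p = 0.000928), Vcan (-0.78, SE 0.11, limma adjusted p = 0.000852), the large proteoglycan versican, Emilin2 (-0.77, SE 0.14, limma adjusted p = 0.00560), an elastin-microfibril interface protein, and Efemp1 (-0.39, limma adjusted p = 0.0467), which is fibulin-3 and is named because the count is small. Averaging its probe sets left Vcan at -0.19, and Efemp1 was lost without any 1 of 7 arrays, all but Ube2f replicates 2 and 3 (-0.43 to -0.32, adjusted p = 0.0763 to 0.120). With Ube2f shRNA 0 of the 13 passed by limma, though 4 had an unadjusted p under 0.05, and their median was 0.05. Between the hairpins 6 were lower with Ube2m and 1 higher, led by Vcan, from 7488 ± 695 with Ube2f to 3441 ± 284 with Ube2m (-1.12, SE 0.11, limma adjusted p = 2.47e-05, against -0.16 when its probe sets were averaged). Adamtsl5 (-0.87, limma adjusted p = 0.00207) and Emilin2 (-0.68, limma adjusted p = 0.00621) came next. Matn2, a matrix adaptor gene, was the higher one (0.54, SE 0.12, limma adjusted p = 0.00953).

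Of 10 other lysyl oxidases and genes of precursor processing, 2 fell with Ube2m shRNA and 0 rose. Loxl3, a further lysyl oxidase, fell by 0.93 on the log2 scale (SE 0.18, limma adjusted p = 0.00854) from 3130 ± 983 to 1596 ± 183, and passed without any 1 array. Postn, which encodes periostin, a matrix protein that helps the protease BMP1 act on lysyl oxidase, had -0.74 (limma adjusted p = 0.0265), lost without control replicate 1 or 2 or Ube2m replicate 1 or 2 (-0.83 to -0.58, adjusted p = 0.0536 to 0.117). With Ube2f shRNA 0 of 10 passed by limma, and 4 had an unadjusted p under 0.05. Between the hairpins 5 were lower with Ube2m and 0 higher. Those that passed without any 1 array were Postn (-1.20, limma adjusted p = 0.00100), the copper transporter gene Atp7a (-0.62, limma adjusted p = 0.00486), whose product supplies copper to lysyl oxidases, and Pcolce (-0.48, limma adjusted p = 0.00777), an enhancer of procollagen processing. Atp7a was lost for the average of its probe sets (-0.49, adjusted p = 0.268) and Pcolce with centring on all probe sets (-0.50, adjusted p = 0.212). The other two were Loxl3 (-0.76, limma adjusted p = 0.0139, but 0.0633 when Ube2m replicate 2 was left out) and Bmp1 (-0.67, limma adjusted p = 0.0203). Bmp1 was lost without Ube2m replicate 1 (-0.65, adjusted p = 0.0677), Ube2m replicate 2 (-0.64, adjusted p = 0.0741) or Ube2f replicate 3 (-0.45, adjusted p = 0.0539).

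**Figure D5:**
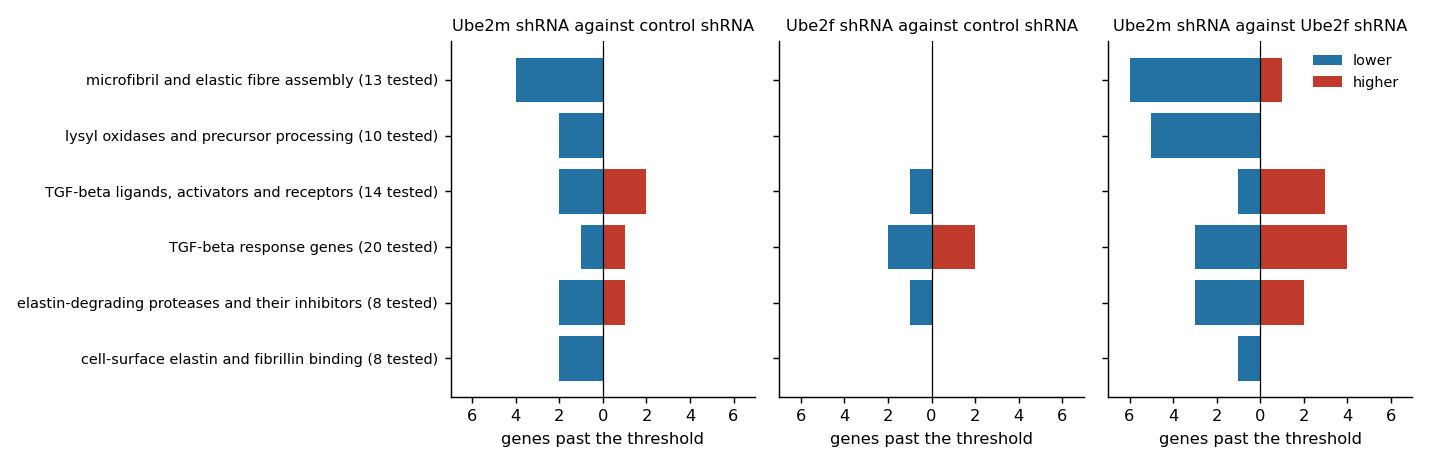
Number of genes past the limma threshold in each of the 6 lists, lower to the left and higher to the right of 0, for the 3 comparisons, with the number tested in brackets. The first list has 4 lower genes with Ube2m shRNA, 0 with Ube2f shRNA, and 6 lower and 1 higher between the hairpins.

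Genes for TGF-beta ligands, activators and receptors moved in both directions. Of 14 tested, 2 rose and 2 fell with Ube2m shRNA, with a median of -0.02. Tgfbr3, the co-receptor betaglycan, fell from 1807 ± 205 to 979 ± 51.0 (-0.87, SE 0.12, limma adjusted p = 0.000937), and was 1988 ± 217 with Ube2f shRNA. Tgfb2, a ligand, rose from 132 ± 21.5 to 255 ± 18.2 (0.88, SE 0.20, limma adjusted p = 0.0171), a call lost without control replicate 2 (0.77, adjusted p = 0.0578), Ube2m replicate 1 (0.88, adjusted p = 0.0644) or Ube2m replicate 2 (0.84, adjusted p = 0.0794). Itgb3, a subunit of an integrin that activates latent TGF-beta, had -1.12 (limma adjusted p = 0.0271), lost without control replicate 1 or 2 or Ube2m replicate 2 or 3 (-1.15 to -0.83, adjusted p = 0.0597 to 0.117). Thbs1, a secreted activator of latent TGF-beta, had 0.41 (limma adjusted p = 0.0406), lost without control replicate 1 or 2, any Ube2m replicate or Ube2f replicate 1 (0.34 to 0.46, adjusted p = 0.0661 to 0.131). With Ube2f shRNA 1 of the 14 passed, Itgb5, an integrin subunit gene, with -0.73 (SE 0.16, limma adjusted p = 0.0221), lost without any Ube2f replicate (-0.77 to -0.66, adjusted p = 0.0518 to 0.0695). Between the hairpins 3 of the 14 were higher and 1 lower with Ube2m. They were Thbs1 (0.62, limma adjusted p = 0.00326), Tgfb2 (0.87, limma adjusted p = 0.0110), Tgfb1 (0.73, limma adjusted p = 0.0418), the founding ligand, and Tgfbr3 (-1.01, limma adjusted p = 0.000147). Tgfb2 was lost without Ube2m replicate 2 (0.82, adjusted p = 0.0533) or Ube2f replicate 1 (0.77, adjusted p = 0.0523), and Tgfb1 without control replicate 1, any Ube2m replicate or Ube2f replicate 1 or 2 (0.52 to 0.84, adjusted p = 0.0528 to 0.156).

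Of 20 tested TGF-beta response genes 1 rose and 1 fell with Ube2m shRNA, and 2 rose and 2 fell with Ube2f shRNA. With Ube2m shRNA the smooth muscle gene Cnn1 rose by a log2 fold change of 0.78 (SE 0.11, limma adjusted p = 0.00134), and Snai2, a transcription factor gene, had -0.32 (limma adjusted p = 0.0384). Snai2 passed there without Ube2f replicate 2 or 3 but not without any 1 of the other 7 arrays (-0.35 to -0.30, adjusted p = 0.0635 to 0.161). With Ube2f shRNA Tgfbi, named for its induction by TGF-beta and coding for a matrix protein, rose to 2387 ± 314 from 643 ± 77.9 (1.87, SE 0.15, limma adjusted p = 3.12e-05) and Snai2 rose by 0.71 (SE 0.089, limma adjusted p = 0.000836, and 0.0799 with centring on all probe sets). Pmepa1, a target that dampens TGF-beta signalling, fell to 432 ± 5.90 from 1242 ± 483 (-1.42, SE 0.21, limma adjusted p = 0.00191). Skil, a co-repressor of SMAD proteins, had -0.69 (limma adjusted p = 0.0104), and -0.69 with an adjusted p of 0.0517 without Ube2f replicate 1. Between the hairpins 4 of the 20 were higher and 3 lower with Ube2m, led by Snai2 (-1.04, limma adjusted p = 1.12e-05), Tgfbi (-1.53, limma adjusted p = 3.39e-05) and Skil (0.82, limma adjusted p = 0.00132).

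Of 8 tested proteases that cut elastin and their inhibitors, 2 fell and 1 rose with Ube2m shRNA. Mmp2, a gelatinase that also cuts elastin, fell from 8952 ± 1139 to 5542 ± 382 (-0.68, SE 0.11, limma adjusted p = 0.00264), and Timp3, a matrix-bound inhibitor, from 5225 ± 536 to 2882 ± 594 (-0.87, SE 0.15, limma adjusted p = 0.00318, but 0.0971 for the average of its probe sets, at -0.48). Slpi, an inhibitor of neutrophil elastase, rose from 602 ± 133 to 2971 ± 24.9 (2.30, SE 0.15, limma adjusted p = 3.49e-06). With Ube2f shRNA 1 passed, the inhibitor gene Timp1, which fell by 0.71 on the log2 scale (SE 0.13, limma adjusted p = 0.00918, and 0.0884 with centring on all probe sets). Of 8 genes for binding of elastin or fibrillin at the cell surface, 2 had called falls with Ube2m shRNA, Itgb3 and Glb1 (-0.49, limma adjusted p = 0.0223), whose splice form is the elastin-binding protein. The Glb1 call was lost without control replicate 1 or 2 or Ube2m replicate 1 or 2 (-0.49 to -0.45, adjusted p = 0.0678 to 0.0980). With Ube2f shRNA 0 of these 8 passed by limma, and 3 had an unadjusted p under 0.05. Between the hairpins 2 of the 8 proteases and inhibitors were higher and 3 lower with Ube2m, led by Slpi (1.90, limma adjusted p = 5.73e-06), the membrane protease gene Mmp14 (-0.87, limma adjusted p = 0.000875) and Mmp2 (-0.49, limma adjusted p = 0.0100, and 0.0854 with centring on all probe sets). Glb1 alone of the binding genes passed between the hairpins (-0.40, limma adjusted p = 0.0384), and not without any Ube2m replicate or Ube2f replicate 2 or 3 (-0.43 to -0.35, adjusted p = 0.0592 to 0.139).

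The tested genes whose log2 values followed Eln most closely over the 9 arrays were Pdzd2 (Pearson r = 0.985), Rbsn (0.979), Kirrel (0.971), Scara5 (0.970) and 4930402H24Rik (0.961). Scara5, a ferritin receptor gene, had mean signals of 1722, 820 and 1199 on control, Ube2m and Ube2f arrays. For Ltbp2 they were Atoh8 (0.986), Lhfp (0.982), Agrn (0.982), Pomt1 (0.979) and Tnpo3 (0.977). Atoh8, a transcription factor gene, had mean signals of 1141, 372 and 780 in the same order, and Agrn, which encodes the matrix proteoglycan agrin, 1502, 837 and 1138. The arrays form 3 groups, so these correlations mostly describe a shared order of group means, and none was tested.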

How the data were processed

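RNA of 9 cultures was measured on 1 array each. The authors' deposited values are intensity, the linear MAS5 signal per probe set per the submitters' processing notes, with version and detection calls not given in the sources used here. The mean after trimming 2% off each end was 500 on every array, so scaling by 1 factor per array leaves differences in the shape of the distribution, and low signals are noisy. Arrays count no reads, so precision is set by their number.

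Values entered the fit as log2(signal + 16). Left out of 45101 probe sets were 64 controls, 932 with several genes and 9160 with no gene name. The model, fitted in limma 3.58.1 (R 4.3.3), gave each of the 3 groups its own mean and took in all 9 arrays (eBayes with intensity trend, prior degrees of freedom 6.55), two-sided, adjusted by Benjamini-Hochberg over 10613 genes. No exact permutation test was used, since 3 arrays a group allow none below 0.1.

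The genes, lists and tests were chosen with earlier results of these data known. The text names the 10 genes, the 5 genes most like Eln and Ltbp2, and per list the 3 tested genes with the smallest p, of which those past the threshold are printed, plus others where a count is small (Efemp1, Matn2, Thbs1, Tgfb1, Skil, Loxl3, Bmp1). Alternatives were the constant, the filter, probe sets, scaling, arrays in the fit, trend, block, beta-actin covariate and single arrays left out. Same-numbered Ube2m and Ube2f arrays deviated together from their group means (r = 0.201, 0.211 and 0.557 over 10613 genes). A fit with the replicate number as a block was run as an alternative only. Unless a block is named, p-values between the hairpins come from the fit without it and do not account for this shared deviation. Ube2m replicate 1 with Ube2f replicate 2 gave 0.276 and the reverse 0.192, so the numbers tell replicate 3 from the others but not 1 from 2.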

Additional observations from a re-analysis of the deposited data

How the results depend on the processing

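For the 8 tested genes in 3 comparisons, 494 of 552 values under 23 alternatives kept their direction and their side of the threshold, 37 lost their call, 12 gained one and 9 changed sign, all of the last among values that were not called. The sign changes were Mfap5 with Ube2m shRNA (0.12 with probe sets averaged, 0.036 with quantile normalization, 0.049 in replicates 1 and 2 only, 0.079 with centring on the genes tested, and -0.073 to 0.12 with each array left out, above 0 without control replicate 2 or Ube2m replicate 3), Fbln2 and Fbln5 with Ube2f shRNA (0.16 and 0.12 with probe sets averaged) and Lox between the hairpins (0.0049 with centring on the genes tested). The cause was not tested. The averages take in a second probe set, which lies under the low-signal level for Fbln5 and above it for Mfap5 and Fbln2. Centring on the genes tested was chosen after seeing the data. The number of the 8 genes called with Ube2f shRNA was 3, and 1 with centring on all probe sets, 1 with the beta-actin covariate, 5 with the replicate block, 5 in replicates 1 and 2 only, and 2 to 4 with each array left out. Between the hairpins it was 5, and 6 with the replicate block, 6 with centring on the genes tested, 4 with probe sets averaged and 3 with centring on all probe sets. With each array left out it was 3 to 5, the 3 being without Ube2m replicate 1 or 2, where Eln and Fbln2 were not called. With Ube2m shRNA it was 6, and 4 to 6 under every alternative. These counts include Eln and Ltbp2, known beforehand to fall with Ube2m shRNA. With probe sets averaged the 3 with Ube2f shRNA were Eln, Lox and Loxl1. Over all genes, the counts called for Ube2m against control, Ube2f against control and Ube2m against Ube2f were 1031, 551 and 1672. They were 607, 271 and 1109 with probe sets averaged, 525, 222 and 868 with centring on all probe sets, and 385 to 1185, 196 to 585 and 1003 to 1825 with each array left out. With the replicate block these counts were 1866, 1225 and 2493, and with the beta-actin covariate 448, 249 and 1661. In replicates 1 and 2 only they were 1737, 1107 and 2032. The Ube2f count was 350 with only the 2 groups compared. Same-numbered arrays correlated with control at r = -0.0046, 0.185 and 0.317 (Ube2m) and 0.015, 0.157 and 0.349 (Ube2f), not over 0.1 for every number. The block is therefore given as an alternative only in the comparisons with control. This reason does not hold between the hairpins, where same-numbered arrays had r = 0.201, 0.211 and 0.557. The block was kept as an alternative there too, so those p-values do not account for the shared deviation. The replicate block added calls for Eln (limma adjusted p = 0.0335) and Ltbp2 (limma adjusted p = 0.00373) with Ube2f shRNA and for Ltbp1 between the hairpins, and changed no other call of the 8 genes. Of 1169 values of called genes of the 6 lists 1039 kept their call and direction and 130 lost their call. Signals near 53.8 limit what can be said of Fbln1 and of 5 of the 11 other probe sets, and the remaining 6 lie above that level.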
